A study of Homo sapiens with 6 samples.

Results

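Interferon-stimulated genes are the genes that cells switch on when interferon binds its receptors, and 38 of them were followed here by symbol among the 20356 gene IDs of the deposited expression table. All 38 were found, and each had a mean of at least 1 FPKM (an abundance scaled by transcript length and library total) in at least 1 group, which was the minimum for testing. The study compared 3 libraries of H1975 OR, osimertinib-resistant cells cultured with 1 µM osimertinib, with 3 libraries of parental H1975 cells kept under normal conditions. H1975 is an EGFR-mutant human lung adenocarcinoma line, osimertinib inhibits mutant EGFR, and both cell populations grew in RPMI-1640 with serum. The design asked which genes differ once resistance has developed. H1975 OR is the only resistant derivative, and its resistance and the presence of the drug cannot be told apart.

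Type I interferons bind the receptor pair IFNAR1 and IFNAR2, and the kinases JAK1 and TYK2 then phosphorylate STAT proteins. Phosphorylated STAT proteins, STAT2 among them, join IRF9 to form the complex ISGF3, which binds a DNA element called the interferon-stimulated response element. Its targets sense viral RNA, block entry, replication or release of virus, modify proteins with the ubiquitin-like protein ISG15, or feed back on the pathway. Tumour cells can hold many of these genes at a steady level without infection, and several are also reached by interferon-gamma, by IRF1 or by NF-kB.

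The response element is visible in the upstream sequence of many members, and those of ISG15 and BST2 are shown because ISG15, the namesake of the group, was lower in H1975 OR and BST2 was among the largest increases. Both are the 250 bases before the gene start in RefSeq, GRCh38.p14, on the gene's strand, and capitals mark the core of the element, 2 copies of GAAA with any 2 bases between them, of which each holds an overlapping pair. ISG15 lies on the plus strand (chr1:1013247-1013496) and BST2 on the minus strand (chr19:17405631-17405880).
ISG15: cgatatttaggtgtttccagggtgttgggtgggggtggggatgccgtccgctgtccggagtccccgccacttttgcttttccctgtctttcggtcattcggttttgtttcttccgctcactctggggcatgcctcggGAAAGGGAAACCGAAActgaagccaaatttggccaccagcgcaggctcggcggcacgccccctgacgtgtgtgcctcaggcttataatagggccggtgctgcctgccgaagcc
BST2: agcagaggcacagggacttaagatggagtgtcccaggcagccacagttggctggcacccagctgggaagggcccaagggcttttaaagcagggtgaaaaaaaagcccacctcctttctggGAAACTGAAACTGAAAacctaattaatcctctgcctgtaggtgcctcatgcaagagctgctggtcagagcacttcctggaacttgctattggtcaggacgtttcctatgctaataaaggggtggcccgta

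Shorter windows around the same core show that genes on either side of the comparison carry it. Where the core lies on the opposite strand it reads as 2 copies of TTTC with 2 bases between them, and each window adds 6 bases on either side. Among members higher in H1975 OR, windows are given for HERC5 (chr4:88457039-88457060, plus strand), GBP1 (chr1:89065320-89065341, minus strand) and IFITM3 (chr11:320880-320901, minus strand). Among members lower in H1975 OR, windows are given for SAMD9 (chr7:93118100-93118121, minus strand), IFITM1 (chr11:313994-314015, plus strand) and IFI6 (chr1:27672292-27672313, minus strand).
HERC5: attatgTTTCGTTTTCcactgg
GBP1: aagtacTTTCAGTTTCatatta
IFITM3: tgttgaGAAACCGAAActactg
SAMD9: agaaatGAAACTGAAAccaaac
IFITM1: cagcagGAAATAGAAActtaag
IFI6: agagggGAAAATGAAActgcag

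RefSeq starts were matched for 29 of the 38 members, DDX58 under its current symbol. The other 9 were IRF7, USP18, IFIT2, OAS2, OASL, IFITM2, MX2, GBP2 and TRIM22. The core, searched on both strands with overlapping matches allowed, was found in the 250 bases before at least 1 start of 18 of the 29. It occurred at 21 of their 39 listed starts, against 3.02% of all 35116 starts. By outcome, it was found for 4 of 8 members higher in H1975 OR, 10 of 15 lower and 4 of 6 that did not pass the test. TTCNNNGAA, the core of the gamma-activated sequence, which STAT dimers bind, was found for 7 of the 29, at 8 of the 39 starts and at 6.57% of all starts. It was found for 2 of the 8 higher members, 4 of the 15 lower and 1 of the 6 others. A match of letters is a description of the window only.

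The 38 genes did not move as a block. In H1975 OR cells 13 were higher and 18 lower at a false discovery rate (FDR) of 0.05 in limma on log2(FPKM + 1), and 7 did not pass. The share called, 81.6%, stood beside 78.0% of all 12107 genes tested, and the parts were 34.2% higher against 39.9% and 47.4% lower against 38.1%. With a size of at least 1 on the log2 scale 3 rose and 4 fell, or 18.4% of the members against 19.3% of all genes (9.95% higher and 9.39% lower). The median log2 fold change was -0.29 over the members and 0.01 over all tested genes. TRIM22 passed the minimum only through H1975 OR. Without it, 12 were higher and 18 lower of 37, with a median of -0.39. The libraries of the groups did not overlap for 31 members, with H1975 OR above for 11 and below for 20, against 79.8% of all tested genes (40.8% above and 39.0% below).

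**Figure D1:**
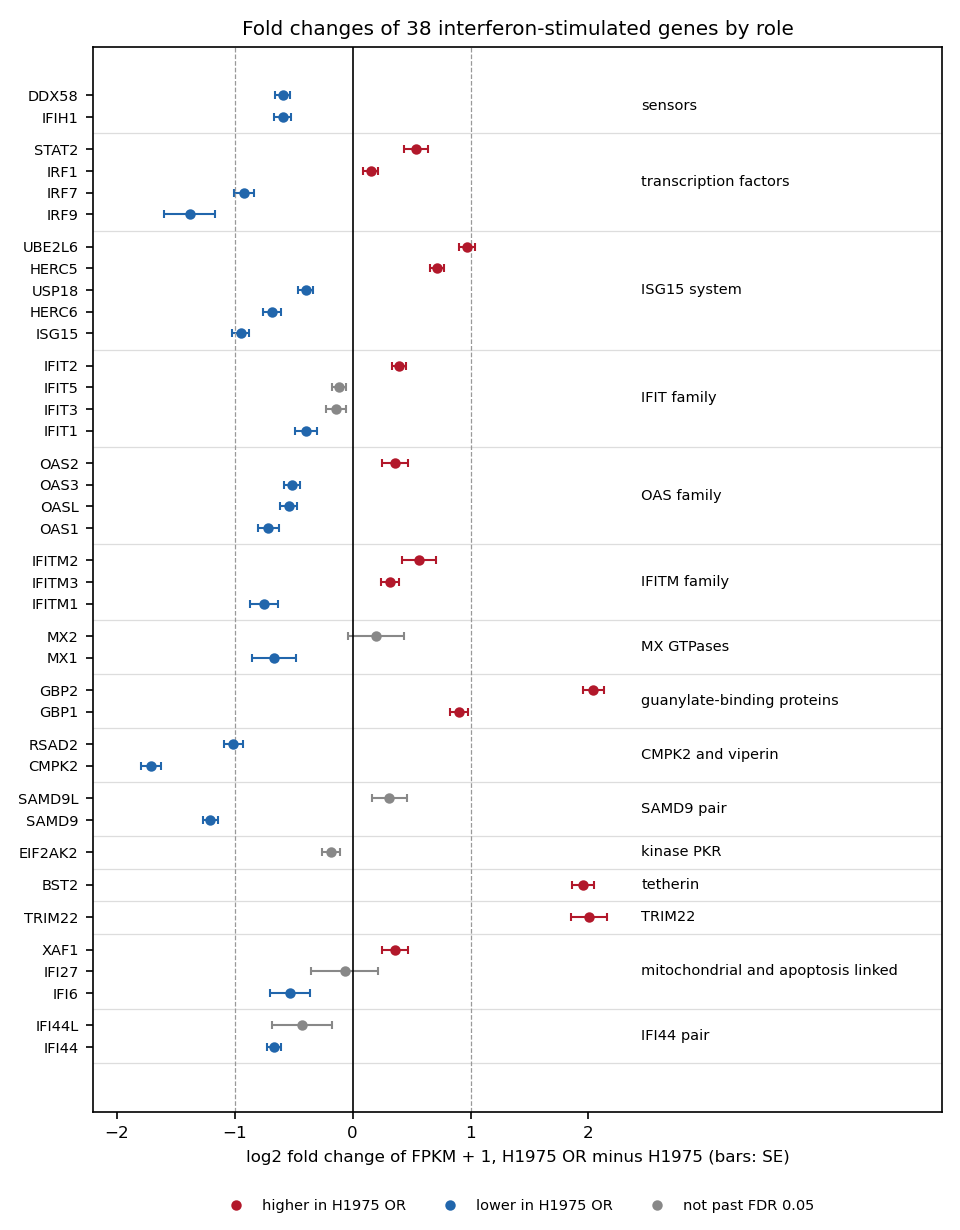
Log2 fold change of FPKM + 1 (H1975 OR minus H1975, horizontal axis) for each of the 38 genes, grouped by role, with bars for the SE and colours for the limma call at an FDR of 0.05. The values run from -1.71 for CMPK2 to 2.04 for GBP2, and 6 of the 15 role groups hold both a higher and a lower member. Of all tested genes, 39.9% were called higher and 38.1% lower, so calls in both directions were common in these data.

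Facts of the libraries that bear on these genes were few. Estimated mapped sequence was 9.72 to 11.5 gigabases in H1975 OR libraries and 10.8 to 14.7 in H1975 libraries, and depth in reads is unknown. Mitochondrial mRNA took 9.47% to 11.2% of TPM (a share of all transcripts) in H1975 OR and 8.06% to 10.0% in H1975. The summed FPKM of 9 epithelial markers was 915 to 992 in H1975 OR and 2979 to 3491 in H1975. All 7 tested epithelial markers were lower in H1975 OR, against 38.1% of all tested genes. CDH1 and NKX2-1 passed the minimum only through H1975, so the direction of these 2 was fixed by it. Among the 7 were EPCAM (1.02 ± 0.237 FPKM in H1975 OR and 211 ± 15.6 in H1975), CDH1 (0.0248 ± 0.0135 and 68.6 ± 3.72), KRT19 (4.58 ± 0.741 and 574 ± 71.8) and KRT7 (289 ± 9.67 and 1451 ± 176). NKX2-1 was listed at 0 in each H1975 OR library, whereas KRT8 (384 ± 19.5 FPKM in H1975 OR and 508 ± 34.0 in H1975) and KRT18 (274 ± 13.2 and 431 ± 15.2) stayed high. The alveolar product gene SFTPB was under 0.02 FPKM in every library. Of 7 leukocyte markers 5 were under 1 FPKM in every library, PTPRC and CD3E among them. The list summed to 70.3 to 80.2 FPKM in H1975 OR and 24.1 to 27.6 in H1975, nearly all from CD14 and CD68. The plasmacytoid dendritic cell markers CLEC4C and LILRA4, which mark a main interferon-producing cell, were at 0 in every library, and all 3 of that list summed to at most 0.164 FPKM. Fibroblast markers summed to 18.01 to 21.9 FPKM in H1975 OR and 2.40 to 2.97 in H1975. The 2 that were tested, COL1A1 and PDGFRB, were higher in H1975 OR (log2 fold changes 2.28 and 2.24). PDGFRB passed the minimum only through H1975 OR, so the minimum fixed its direction. The other 5 were under 1 FPKM in every library, with DCN at 0 throughout. Of 4 listed endothelial markers, 3 were found by symbol and PECAM1 was not. The 3 summed to 1.08 to 1.41 FPKM in H1975 OR and 0.620 to 0.762 in H1975. Only CDH5 was tested, with a log2 fold change of 0.46. CDH5 passed the minimum only through H1975 OR, so the minimum fixed its direction. The part of other cell types in the results was not tested.

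The total output of the 38 genes was of similar size in both populations. Their TPM summed to 5991, 5784 and 6135 in H1975 OR replicates 1 to 3 and to 5736, 4773 and 6817 in H1975 replicates 1 to 3, so the groups overlapped. IFI27 alone, a small interferon-induced membrane protein gene, made up 24.3% to 26.7% of the sum in H1975 OR and 22.5% to 32.7% in H1975. By FPKM, a scale per transcript length, the highest members in H1975 OR were IFI27 (662 ± 45.7, SD, n = 3), IFITM3 (417 ± 16.1) and BST2 (411 ± 20.2), and the last pair overlapped. In H1975 they were IFI27 (723 ± 249), IFITM3 (336 ± 31.1), ISG15 (263 ± 23.9) and IFI6 (248 ± 61.0). There IFI6 overlapped with both ISG15 and IFITM3. BST2 thus stood beside IFITM3 in H1975 OR and well under it in H1975, at 106 ± 14.7 FPKM.

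The 2 members grouped here as sensors, both of viral RNA, were lower in H1975 OR. DDX58, which encodes RIG-I, the sensor of short or uncapped viral RNA (9:32455300-32526322; coordinates of genes are GRCh37 from the deposited files), had 15.3, 14.1 and 13.7 FPKM in H1975 OR and 21.9, 21.97 and 22.7 in H1975. IFIH1, which encodes MDA5, the sensor of long double-stranded RNA (2:163123589-163175213), had 8.83, 7.56 and 8.03 FPKM in H1975 OR and 12.8, 12.3 and 13.3 in H1975. Each H1975 OR library lay below each H1975 library for both genes, and both log2 fold changes were -0.59 (SE 0.0618 and 0.0685, adjusted p = 1.8e-06 and 4.7e-06).

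The transcription factors on the list split into 2 that rose and 2 that fell. IRF9, the DNA-binding part of ISGF3 (14:24630262-24635774), had 10.2, 12.4 and 7.38 FPKM in H1975 OR and 23.1, 26.3 and 33.0 in H1975, a log2 fold change of -1.38 ± 0.219 (SE, adjusted p = 0.0021). IRF7, the amplifier of type I interferon transcription (11:612553-615999), had 8.16, 7.68 and 7.85 FPKM in H1975 OR and 15.2, 14.1 and 18.6 in H1975, -0.92 ± 0.0876 (adjusted p = 1.1e-06). IRF9 was variable within both groups, while IRF7 was tight in H1975 OR, and for neither gene did the groups overlap.

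STAT2, the partner of IRF9 in ISGF3 (12:56735381-56753939), went the other way. It had 19.04, 18.5 and 21.1 FPKM in H1975 OR and 12.2, 11.7 and 15.9 in H1975, a log2 fold change of 0.54 ± 0.102 (adjusted p = 6.5e-04). IRF1, a factor induced by interferon-gamma and by NF-kB (5:131817301-131826490), had 12.03, 13.5 and 13.4 FPKM in H1975 OR and 11.2, 11.9 and 11.6 in H1975. Its log2 fold change was 0.15 ± 0.0644 (adjusted p = 0.047), a call that ended when any library other than H1975 OR replicate 1 was left out (adjusted p 0.056 to 0.15). Another annotated transcript unit covers all of IRF9 on the same strand at 3.60 ± 1.65 FPKM in H1975 OR and 5.49 ± 1.33 in H1975, so fragments of the pair may be shared.

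**Figure D2:**
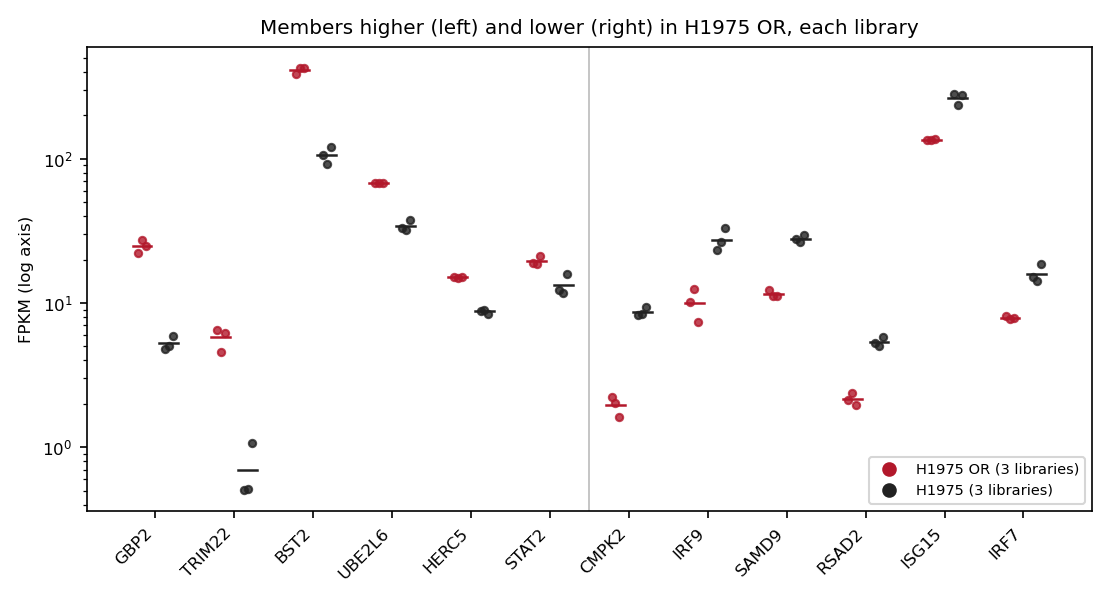
FPKM on a log axis for 12 members in the 3 H1975 OR libraries and, to their right, the 3 H1975 libraries, with a line at each mean. The groups are apart for all 12 genes, and TRIM22 has the widest gap, at 4.59 to 6.51 FPKM in H1975 OR and 0.507 to 1.07 in H1975. The direction of TRIM22 was fixed by the minimum for testing, which it passed only through H1975 OR.

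The ISG15 system was split, with 2 members higher and 3, the modifier among them, lower. ISG15, the ubiquitin-like protein that is attached to other proteins or secreted (1:948803-949920), had 134, 135 and 137 FPKM in H1975 OR and 278, 235 and 275 in H1975. UBE2L6, the enzyme that carries ISG15 to its ligases (11:57319129-57335757), had 67.6, 67.3 and 67.8 FPKM in H1975 OR and 33.2, 31.9 and 37.4 in H1975. HERC5, the main human ISG15 ligase (4:89378268-89427314), had 15.1, 14.9 and 15.0 FPKM in H1975 OR and 8.82, 8.95 and 8.43 in H1975. The modifier was thus lower and the carrier and ligase higher in every H1975 OR library, with log2 fold changes of -0.95 ± 0.0727 for ISG15 (adjusted p = 1.0e-07), 0.97 ± 0.0671 for UBE2L6 (adjusted p = 3.9e-08) and 0.72 ± 0.0578 for HERC5 (adjusted p = 1.6e-07).

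The other members of this system were lower. USP18, the protease that removes ISG15 and also blocks signalling at IFNAR2 (22:18632666-18660164), had 10.9, 10.5 and 9.45 FPKM in H1975 OR and 13.9, 13.8 and 13.8 in H1975 (log2 fold change -0.40 ± 0.0647, adjusted p = 1.0e-04). HERC6, the homologue of HERC5 that is the main ISG15 ligase in mouse (4:89299891-89364263), had 10.4, 9.01 and 8.49 FPKM in H1975 OR and 14.6, 15.2 and 16.8 in H1975 (-0.68 ± 0.0788, adjusted p = 4.8e-06). The groups did not overlap for either. UBA7, the activating enzyme for ISG15, came from a list of other interferon-stimulated genes and was named after its values were seen, with 16.1, 16.9 and 18.6 FPKM in H1975 OR and 10.3, 9.97 and 12.9 in H1975 (log2 fold change 0.60).

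Among proteins that act at membranes, BST2 had the largest change by FPKM. BST2 encodes tetherin, which holds budding virions at the cell surface (19:17513748-17516457). It had 388, 422 and 423 FPKM in H1975 OR and 106, 91.4 and 121 in H1975, a ratio of means of 3.88 and a log2 fold change of 1.95 ± 0.0919 (adjusted p = 2.1e-09). The lowest H1975 OR library was more than 3 times the highest H1975 library.

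The IFITM proteins, which hinder fusion of viral with cellular membranes, are encoded side by side on chromosome 11 and were split. IFITM1, found mainly at the cell surface (11:313506-315272), had 74.0, 54.7 and 73.9 FPKM in H1975 OR and 112, 105 and 124 in H1975 (log2 fold change -0.75 ± 0.120, adjusted p = 3.4e-04). IFITM2 (11:307631-315272) had 91.8, 107 and 105 FPKM in H1975 OR and 86.6, 59.2 and 61.8 in H1975 (0.56 ± 0.145, adjusted p = 0.0082). IFITM3, found mainly in endosomes (11:319669-327537), had 424, 398 and 428 FPKM in H1975 OR and 348, 300 and 359 in H1975 (0.32 ± 0.0767, adjusted p = 0.0023). IFITM1 was lower and the other pair higher in every H1975 OR library, although H1975 replicate 1 came close to the H1975 OR libraries for IFITM2. The longest reading frames of IFITM2 and IFITM3 in GENCODE v29 transcripts are 94.0% identical, those of IFITM1 and IFITM3 88.8%, and transcripts of IFITM1 and IFITM3 share a run of 141 bases. The annotated spans of IFITM1 and IFITM2 overlap on the same strand along the whole of IFITM1, so the division of fragments between the 3 genes is uncertain.

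Both genes of a nucleotide-modifying pair on chromosome 2 fell, and CMPK2 had the largest decrease of the 38. CMPK2, a mitochondrial nucleotide kinase (2:6980701-7006766), had 2.24, 2.03 and 1.63 FPKM in H1975 OR and 8.22, 8.44 and 9.34 in H1975, a log2 fold change of -1.71 ± 0.0858 (adjusted p = 1.9e-09). RSAD2, which encodes viperin, an enzyme that makes a chain-terminating nucleotide (2:7005937-7038370), had 2.14, 2.37 and 1.97 FPKM in H1975 OR and 5.29, 5.001 and 5.80 in H1975 (-1.01 ± 0.0773, adjusted p = 9.8e-08). CMPK2 was at 0.227 and RSAD2 at 0.402 of its H1975 mean, with no overlap between groups. The genes lie head to head on opposite strands and share 830 bases of annotated span, and whether counting used strand is not given in the sources used here.

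SAMD9, an antiviral gene that restricts growth and translation (7:92728829-92747336), fell by more than 1 on the log2 scale, as did CMPK2, RSAD2 and IRF9. It had 12.3, 11.1 and 11.1 FPKM in H1975 OR and 27.9, 26.3 and 29.4 in H1975 (log2 fold change -1.21 ± 0.0659, adjusted p = 4.0e-09). Its paralogue SAMD9L next to it (7:92759368-92777682) had 5.19, 3.88 and 4.58 FPKM in H1975 OR and 3.07, 2.88 and 4.62 in H1975 (0.31 ± 0.149, adjusted p = 0.089). SAMD9 was lower in every H1975 OR library. For SAMD9L the groups overlapped only through H1975 replicate 3, and without that library the gene passed (0.48, adjusted p = 0.0017).

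Guanylate-binding proteins, large GTPases that attack vacuoles holding pathogens and that respond strongly to interferon-gamma, were both higher. GBP2 (1:89571815-89616139) had 22.1, 27.4 and 24.96 FPKM in H1975 OR and 4.83, 5.04 and 5.89 in H1975, a ratio of means of 4.72 and a log2 fold change of 2.04 ± 0.0868 (adjusted p = 6.5e-10). GBP1 (1:89518002-89531043) had 18.04, 19.05 and 15.8 FPKM in H1975 OR and 9.12, 8.43 and 9.29 in H1975 (0.90 ± 0.0739, adjusted p = 1.9e-07). GBP1 was the higher of the pair in each H1975 library and GBP2 in each H1975 OR library. Of their relatives on the list of interferon-gamma linked genes, named after their values were seen, GBP3 had a log2 fold change of -0.20 and passed, GBP5 one of -0.03 and did not, and GBP4 stayed below the minimum.

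TRIM22, a ubiquitin ligase of the tripartite motif family (11:5710919-5758319), had 6.51, 4.59 and 6.22 FPKM in H1975 OR and 0.507, 0.515 and 1.07 in H1975 (log2 fold change 2.002 ± 0.153, adjusted p = 3.4e-06). The groups were apart, and the ratio of means was 8.30. TRIM22 passed the minimum only through H1975 OR, so the minimum fixed its direction. TRIM5, a retroviral restriction factor annotated on the opposite strand across the whole of TRIM22, had 18.6 ± 0.790 FPKM in H1975 OR and 10.6 ± 0.106 in H1975.

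The OAS family, which makes the 2-5A messenger that activates RNase L, had 1 higher and 3 lower members. OAS1 (12:113344582-113369990) had 23.4, 20.0 and 21.6 FPKM in H1975 OR and 35.3, 32.5 and 41.3 in H1975 (log2 fold change -0.72 ± 0.0881, adjusted p = 1.1e-05). OAS3 (12:113376157-113411054) had 38.4, 36.1 and 35.0 FPKM in H1975 OR and 52.7, 49.4 and 55.4 in H1975 (-0.51 ± 0.0652, adjusted p = 1.2e-05). Both, and OASL (-0.54), a relative that aids RIG-I and makes no 2-5A, were lower in every H1975 OR library. OAS2, between 20.4 and 24.3 FPKM in H1975 OR and between 15.0 and 20.6 in H1975, was called higher (0.36, adjusted p = 0.013) although the ranges overlapped slightly, and this call ended without H1975 OR replicate 1 (adjusted p = 0.055).

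IFIT proteins, which bind foreign RNA ends and stall its translation, showed small changes. IFIT1 (10:91152303-91163745) had 51.1, 43.9 and 42.6 FPKM in H1975 OR and 56.7, 56.1 and 69.3 in H1975 (log2 fold change -0.39 ± 0.0934, adjusted p = 0.0024). IFIT2 (10:91061712-91069033) had 18.3, 17.3 and 17.6 FPKM in H1975 OR and 12.8, 13.3 and 13.7 in H1975 (0.39 ± 0.0585, adjusted p = 4.9e-05). These members of a cluster were thus called in opposite directions, each without overlap. IFIT3 (-0.14) and IFIT5 (-0.12) did not pass, and IFIT3 passed once H1975 OR replicate 1 was left out (-0.24, adjusted p = 0.010). LIPA, a lysosomal lipase gene, is annotated on the opposite strand across IFIT1, IFIT2 and IFIT3 at 91.1 ± 6.37 FPKM in H1975 OR and 61.1 ± 1.96 in H1975.

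MX1, a dynamin-like GTPase that traps viral nucleoproteins (21:42792231-42831141), had 26.8, 21.2 and 23.9 FPKM in H1975 OR and 36.5, 31.0 and 50.3 in H1975 (log2 fold change -0.67 ± 0.188, adjusted p = 0.018). Its neighbour MX2 had 8.27 to 10.8 FPKM in H1975 OR and 6.02 to 11.1 in H1975 and did not pass (0.20, adjusted p = 0.47). MX1 was lower in every H1975 OR library, and its call ended without H1975 OR replicate 2 or 3 or H1975 replicate 1 (adjusted p 0.052 to 0.071). MX2 was called higher without H1975 replicate 3 (0.43, adjusted p = 0.0067). EIF2AK2, which encodes the kinase PKR that halts translation on double-stranded RNA, had 18.9 to 19.6 FPKM in H1975 OR and 19.7 to 25.03 in H1975 (-0.18, adjusted p = 0.051). Without H1975 replicate 1 it passed as lower (-0.26, adjusted p = 0.013).

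The remaining members have less settled roles. IFI44, a cytosolic protein gene of unclear function, was lower at 41.3, 38.6 and 40.2 FPKM in H1975 OR against 64.8, 64.0 and 63.9 in H1975 (log2 fold change -0.67 ± 0.0575, adjusted p = 3.1e-07). Its neighbour IFI44L had 9.51 to 13.2 FPKM in H1975 OR and 12.05 to 21.97 in H1975 and did not pass (-0.43, adjusted p = 0.18), though it did without H1975 replicate 2 (-0.62, adjusted p = 0.023). IFI6, an antiapoptotic membrane protein gene, had 162, 167 and 174 FPKM in H1975 OR and 239, 192 and 313 in H1975 (-0.53, adjusted p = 0.023), and its call ended when any H1975 OR library or H1975 replicate 1 was left out (adjusted p 0.063 to 0.082). XAF1, a gene that promotes apoptosis, had 38.05, 32.2 and 40.0 FPKM in H1975 OR and 25.3, 27.0 and 33.3 in H1975, with overlap (0.36, adjusted p = 0.013), and its call ended without H1975 OR replicate 1 (adjusted p = 0.059).

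IFI27 had the largest SD in FPKM of all members in the parental line, although by coefficient of variation TRIM22 was more variable there. It had 611, 678 and 698 FPKM in H1975 OR and 724, 473 and 971 in H1975 (log2 fold change -0.07 ± 0.284, adjusted p = 0.84). The direction depended on the parental libraries, with -0.34 without H1975 replicate 2 (adjusted p = 0.029) and 0.18 without H1975 replicate 3 (adjusted p = 0.38).

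The H1975 libraries differed among themselves in these genes as a set. Replicate 3 held the highest of the 3 H1975 values for 30 of the 38 members, or 78.9%, whereas it did so for 22% of all tested genes. Replicate 2 held the lowest value for 23 members, or 60.5%, against 23.8% of all tested genes. In H1975 OR, replicate 1 was highest for 22 members, or 57.9%, against 16.7% of all tested genes. The median coefficient of variation was 7.59% over members in H1975 OR and 9.18% in H1975, against 6.42% and 5.92% over all tested genes. H1975 replicate 3 and H1975 OR replicate 1 also had the largest mitochondrial mRNA share of their groups, 10.0% and 11.2% of TPM, and the part of this in the pattern was not tested.

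**Figure D3:**
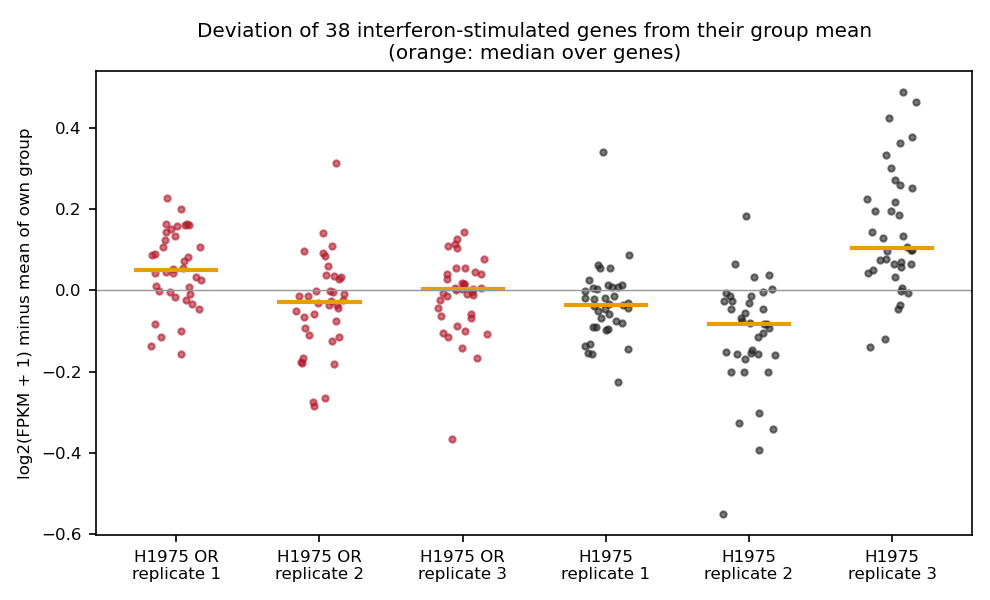
Each point is 1 of the 38 genes, plotted as log2(FPKM + 1) minus the mean of its own group, for the 3 H1975 OR libraries and then the 3 H1975 libraries, with orange lines for medians. The median is 0.10 in H1975 replicate 3 and -0.08 in H1975 replicate 2, while the H1975 OR medians lie between -0.03 and 0.05.

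Of the 38 members, 22 sit next to another member within 100000 bases, in 13 neighbouring pairs. The FPKM ratio within a pair, a comparison that cancels scaling between libraries, did not overlap between groups in 12 of the 13, or 92.3%. Each of these had the smallest p that 3 against 3 allows, 0.10 in a two-sided exact permutation test. Over 8965 pairs of adjacent tested genes within the same distance and with no value of 0, 78.0% did not overlap, so separation of such a ratio was common in these data. These pairs are consecutive among all tested genes, whereas the 13 are consecutive among members and can have another gene between them. The largest shift was in SAMD9 over SAMD9L, at 2.56 ± 0.272 in H1975 OR and 8.204 ± 1.59 in H1975 (SD, n = 3). HERC6 over HERC5 was 0.619 ± 0.0622 in H1975 OR and 1.78 ± 0.182 in H1975, and GBP1 over GBP2 was 0.716 ± 0.0932 and 1.71 ± 0.160. In 4 pairs, or 30.8% against 19.7% of the adjacent tested genes, the neighbours passed in opposite directions, namely IFITM2 with IFITM1, IFITM1 with IFITM3, OAS3 with OAS2 and HERC6 with HERC5. Ratios shifted by over 1.5 times in 8 pairs, or 61.5% against 52.3%, and IFI44L with IFI44 was the pair that overlapped (exact permutation p = 0.60).

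**Figure D4:**
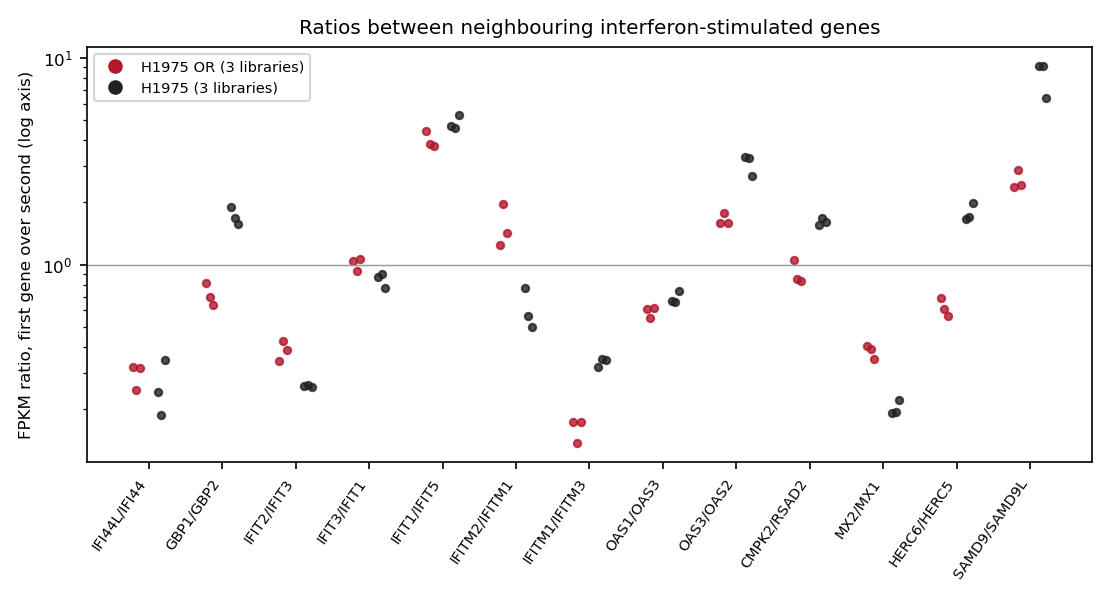
FPKM ratio of the first to the second gene of each of 13 neighbouring pairs, on a log axis, in the 3 H1975 OR libraries and, to their right, the 3 H1975 libraries. HERC6/HERC5 and GBP1/GBP2 lie below 1 in every H1975 OR library and above 1 in every H1975 library, and IFITM2/IFITM1 lies above 1 in H1975 OR and below 1 in H1975.

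Upstream of these genes, interferon ligands were near zero. None of 21 ligand genes reached 1 FPKM as a mean in either group, so none was tested. IFNB1, interferon-beta, had 0.0537, 0.0214 and 0.0229 FPKM in H1975 OR and 0.0102, 0.0330 and 0.0315 in H1975. The highest was IFNE, an interferon of epithelia, with 0.0767, 0.109 and 0.0695 FPKM in H1975 OR and 0.648, 0.522 and 0.761 in H1975. IFNB1 overlapped between groups, whereas IFNE was lower in each H1975 OR library.

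Of 10 tested genes of receptors and JAK-STAT signalling, 5 were higher, 1 was lower and 4 did not pass, with a median log2 fold change of 0.18. The share called was 60.0%, against 78.0% of all tested genes (39.9% higher and 38.1% lower), and the same shares of all genes stand beside the lists that follow. TYK2, a kinase bound to IFNAR1, had 39.7, 43.5 and 44.5 FPKM in H1975 OR and 18.2, 18.5 and 17.6 in H1975 (log2 fold change 1.19, adjusted p = 3.2e-09). IFNAR2 (8.88 ± 0.165 FPKM in H1975 OR and 4.93 ± 0.394 in H1975) and IFNGR1, a chain of the interferon-gamma receptor (26.6 ± 0.891 and 14.01 ± 0.669), also rose. JAK1 (32.6 ± 0.921 FPKM in H1975 OR and 32.6 ± 0.491 in H1975) and IFNAR1 (9.44 ± 0.601 and 8.56 ± 1.38) did not pass, although IFNAR1 did without H1975 replicate 2 (0.24, adjusted p = 0.029).

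Negative regulators counted 2 higher and 5 lower of 11, or 63.6% called, with a median log2 fold change of -0.04. SOCS1, an inhibitor of JAK kinases, had 3.55 ± 0.150 FPKM in H1975 OR and 1.15 ± 0.177 in H1975 (log2 fold change 1.09), and PIAS4 rose by 0.18, a call lost without H1975 OR replicate 2 or 3 or H1975 replicate 3 (adjusted p 0.064 to 0.097). The phosphatase genes PTPN6 (1.99 ± 0.434 and 7.86 ± 0.606 FPKM) and PTPN2 (5.33 ± 0.447 and 13.1 ± 0.671 FPKM) were lower in H1975 OR, as was CISH (0.362 ± 0.0925 and 1.88 ± 0.374 FPKM), which inhibits STAT5 signalling.

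In nucleic acid sensing, 8 genes were higher and 8 lower of 19 tested, or 84.2% called, with a median log2 fold change of -0.02. TLR3, the endosomal sensor of double-stranded RNA, had 1.80 ± 0.105 FPKM in H1975 OR and 0.165 ± 0.0390 in H1975 and passed the minimum only through H1975 OR. SAMHD1, which depletes nucleotides (23.9 ± 0.419 and 10.4 ± 0.717 FPKM), and the exonuclease gene TREX1 (6.67 ± 0.780 and 3.92 ± 0.528) were higher in H1975 OR too. The adaptor gene MYD88 (9.09 ± 0.886 and 21.2 ± 4.84 FPKM), IRF3, the factor activated by RNA and DNA sensors (18.6 ± 2.13 and 35.0 ± 3.93), and AIM2, an inflammasome sensor of DNA (12.03 ± 0.267 and 22.4 ± 1.64), were lower in H1975 OR. MAVS, the adaptor of RIG-I and MDA5, did not pass (18.8 ± 0.798 FPKM in H1975 OR and 18.3 ± 1.27 in H1975).

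Among other IRF factors, IRF5, which acts in innate immune signalling, fell (0.0881 ± 0.00303 FPKM in H1975 OR and 8.75 ± 0.939 in H1975), and IRF2 rose slightly (11.2 ± 0.266 FPKM in H1975 OR and 9.10 ± 0.624 in H1975). IRF5 passed the minimum only through H1975, as did CISH, EPSTI1 and CIITA, and TNFSF10 only through H1975 OR. The direction of the difference in these genes was thus fixed by the minimum.

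A second list of 40 interferon-stimulated genes outside the 38 held 14 higher and 20 lower genes, with a median log2 fold change of -0.16. The share called was 85%, against 78.0% of all tested genes. APOL1, an innate immunity lipoprotein gene (38.3 ± 3.62 FPKM in H1975 OR and 11.1 ± 1.49 in H1975), C19orf66, an inhibitor of viral frameshifting (38.5 ± 1.98 and 12.3 ± 1.33), and TNFSF10, the death ligand TRAIL (2.86 ± 0.258 and 0.310 ± 0.199), had the largest increases. EPSTI1 was listed at 0 in each H1975 OR library and had 2.63, 2.41 and 3.82 FPKM in H1975. The nuclear body gene SP110 (10.1 ± 0.112 and 22.9 ± 1.64 FPKM) and PARP9, a partner of the ubiquitin ligase DTX3L (17.9 ± 0.692 and 39.6 ± 1.88), fell as well. Of 6 tested interferon-gamma linked genes 1 rose and 4 fell. ICAM1, an adhesion molecule that NF-kB also induces, had 123 ± 2.27 FPKM in H1975 OR and 15.5 ± 2.86 in H1975, while CIITA, the regulator of class II genes (0.755 ± 0.175 and 3.15 ± 0.0940), CD274, which encodes PD-L1 (4.15 ± 0.323 and 7.59 ± 0.597), and WARS, a tryptophanyl-tRNA synthetase (91.3 ± 3.11 and 117 ± 2.01), were lower in H1975 OR.

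**Figure D5:**
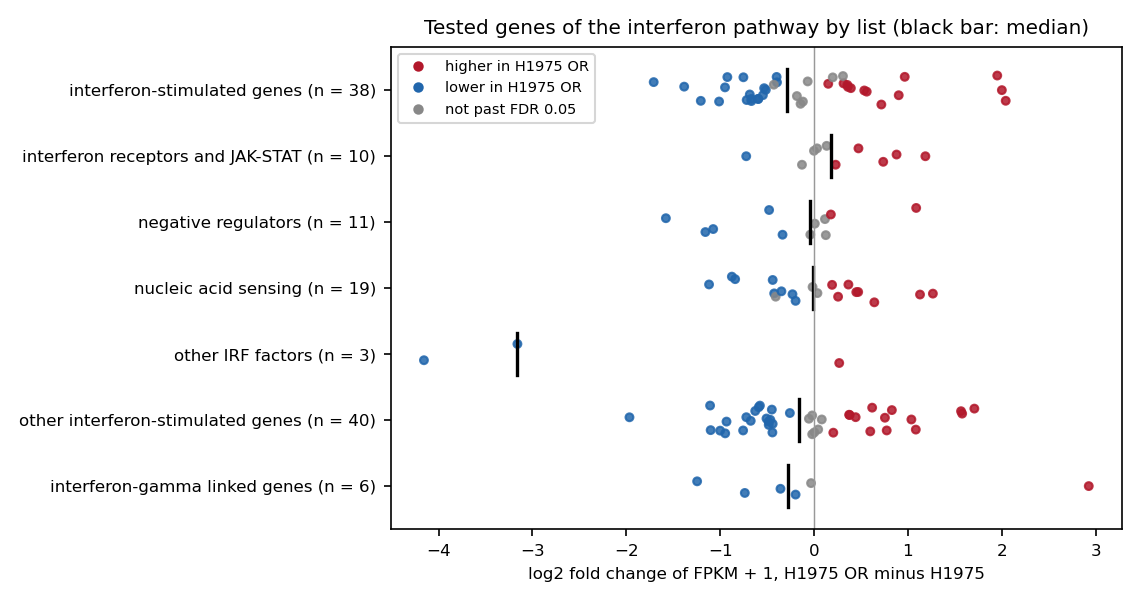
Log2 fold change of FPKM + 1 (H1975 OR minus H1975) of each tested gene in 7 lists of the interferon pathway, coloured by the limma call, with a black bar at each median. The medians of the lists with more than 3 genes lie between -0.29 and 0.18, and every such list holds genes on both sides of zero.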

How the data were processed

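Total RNA of 3 H1975 OR and 3 H1975 libraries, grouped by sample title, was sequenced. The series design calls the replicates biological. The submitters' processing notes name the build GRCh37 and DESeq, which has no stated role. Aligner, quantifier, annotation and strand setting were not given. The deposited values are FPKM, in a series table and in 1 file per library that also holds, per the file headers, TPM and coverage, a signal not scaled to library size. No counts were available to these tests, so limma was used as planned for FPKM. The highest ratio of coverage to FPKM was read as mapped gigabases.

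A mean FPKM of 1 in either group was the minimum for testing. The model was limma 3.58.1 (R 4.3.3) on log2(FPKM + 1), with trend and robust moderation, two-sided. Benjamini-Hochberg adjustment covered all 12107 genes, and every adjusted p in the text is from limma. Fold changes are H1975 OR minus H1975 on that scale, which understates those of low genes. The spread behind the p-values is that among cultures of a single derivative and its parent. The code was tested on simulated data. The members and lists were chosen with earlier results of these data known. The named genes are the 38 members, up to 3 largest changes per direction in each pathway list, and JAK1, TYK2, IFNAR1, IFNAR2, MAVS and IRF3, and any other was chosen after its values were seen. Some genes that this rule takes are not reported here. Alternatives were a pseudocount of 0.1, other filters, median-of-ratios scaling, TPM, plain moderation, a replicate block and leaving out each library. Neighbour ratios used an exact permutation test (scipy 1.17.1), and reading frames were aligned with biopython 1.88.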

Additional observations from a re-analysis of the deposited data

Results flagged for a closer look

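Around IFITM3, 3 annotated units that are in the library files and outside the series table, and that averaged at least 1 FPKM in H1975 OR, were higher in every H1975 OR library than in any H1975 library. RP11-326C3.13, on the strand of IFITM3, averaged 6.36 FPKM in H1975 OR and 0.249 in H1975. RP11-326C3.11 averaged 2.92 FPKM in H1975 OR and 0.639 in H1975, and RP11-326C3.12 averaged 1.6 and 0.115, both on the opposite strand. They were not tested, and how fragments were divided between them and IFITM3 is not given in the sources used here.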

How the results depend on the processing

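Of the 31 called members, 24 kept direction and call in each of the 13 alternatives in which they were tested. Those that lost their call in at least 1 alternative include IRF1, OAS2, MX1, IFI6 and XAF1, and the others are not named here. TRIM22 was not tested with a filter of 1 FPKM in both groups. The 4 counts of members stayed within 1.5 times of those reported. The median log2 fold change of tested interferon-stimulated genes was -0.394 with a filter of 1 FPKM in both groups and -0.371 to -0.209 when a library was left out, the extremes without H1975 replicates 2 and 3. With the filter in both groups, all tested genes lower by at least 1 log2 numbered 722, against 1137, and 0 other IRF factors were lower. With no filter, 2 receptor and JAK-STAT genes were lower, 3 interferon-gamma linked genes higher and 9 members higher. Negative regulators counted 1 to 3 higher when a library was left out. Directions turned for genes that did not pass. With a library left out, IFI27 ran from -0.342 to 0.177, JAK1 from -0.012 to 0.023 and MAVS from -0.018 to 0.071, and with TPM JAK1 was 0.034; the cause was not tested. No scaling moved the median of all genes by over 0.1. Same-numbered libraries deviated together with r of -0.135, 0.0761 and 0.099, so the numbers were not taken as pairs. With the replicate block 14 members were higher and 20 lower, with a median of -0.29. Depth in reads is unknown, so the counting error of low values such as those of TRIM22 in H1975 cannot be given.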
